A study of Mus musculus with 8 samples.

Results

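The 10 smooth muscle contractile genes described here are Acta2, Actg2, Myh11, Myl9, Mylk, Tagln, Cnn1, Smtn, Cald1 and Lmod1, out of 22367 protein-coding genes of the mm9 annotation. They were taken as a named list, and each was examined from 10 kb upstream of its transcription start site (TSS) to 3 kb past its end, a span called the gene window below. The data were H3.3-HA ChIP-seq enrichment peaks, which are stretches of the genome where DNA recovered with HA-tagged histone H3.3 stood above the background of the peak caller. The 8 samples were 1 ChIP and 1 input library for each of 4 conditions, namely wild type (WT) and Hira-null mouse embryonic stem cells (mESCs), undifferentiated at day 0 and differentiated towards cardiomyocytes at day 15. Cells of both genotypes carried the H3.3-HA tag, the WT line was W9.5, and the Hira-null line was 1 clone, Clone104, so the genotype cannot be told apart from that clone. Per the study's methods, the undifferentiated cells were kept with LIF, a cytokine that holds mESCs undifferentiated, while the differentiation medium had another base and lists no LIF, so the days differ in medium too. With no replicates, the lists were compared without a test, and no p-value can be given. The number of reads behind each list is unknown, so a gene without a peak means that none was called at that depth. The lists held 27272 peaks in WT and 7332 in Hira-null cells at day 15, and 22730 and 17706 at day 0. They give no RNA level, so neither the loss of Hira nor the presence of smooth muscle cells was checked here. In a mixed culture, the share of cells with H3.3 at a site and the amount of H3.3 per cell cannot be told apart.

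Histone H3.3 enters chromatin outside DNA replication, and HIRA is one of the chaperones that deposit it, mainly at genes that are being transcribed and at their enhancers. Smooth muscle shortens when myosin filaments pull on actin filaments, after calcium and calmodulin have switched on the kinase that phosphorylates the myosin light chain. Early cardiac muscle and the smooth muscle of vessels share several of these proteins, and many of their genes are controlled by serum response factor (SRF) through a sequence called the CArG box.

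At day 15, the WT list had 22 peaks at 7 of the 10 genes and the Hira-null list had 16 peaks at 6 of them. Among all protein-coding genes, 39.4% had a WT peak and 15.2% had a Hira-null peak. Both genotypes had peaks at Acta2, Myl9, Mylk and Cald1. Among all genes, 8810 had a WT peak, and 6327 of these had no Hira-null peak. Myh11, Smtn and Lmod1 had WT peaks and no Hira-null peak. These 3 of 10 genes were near the share of 28.3% over all genes. Tagln and Cnn1 had Hira-null peaks and no WT peak, a pattern of 4.10% of all genes. Actg2 had no peak in any list. Of the 22 WT peaks, 18 did not overlap a Hira-null peak, against 92.7% of all WT peaks in gene windows. Of the 16 Hira-null peaks, 12 did not overlap a WT peak, against 60.8% of all Hira-null peaks in gene windows.

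**Figure D1:**
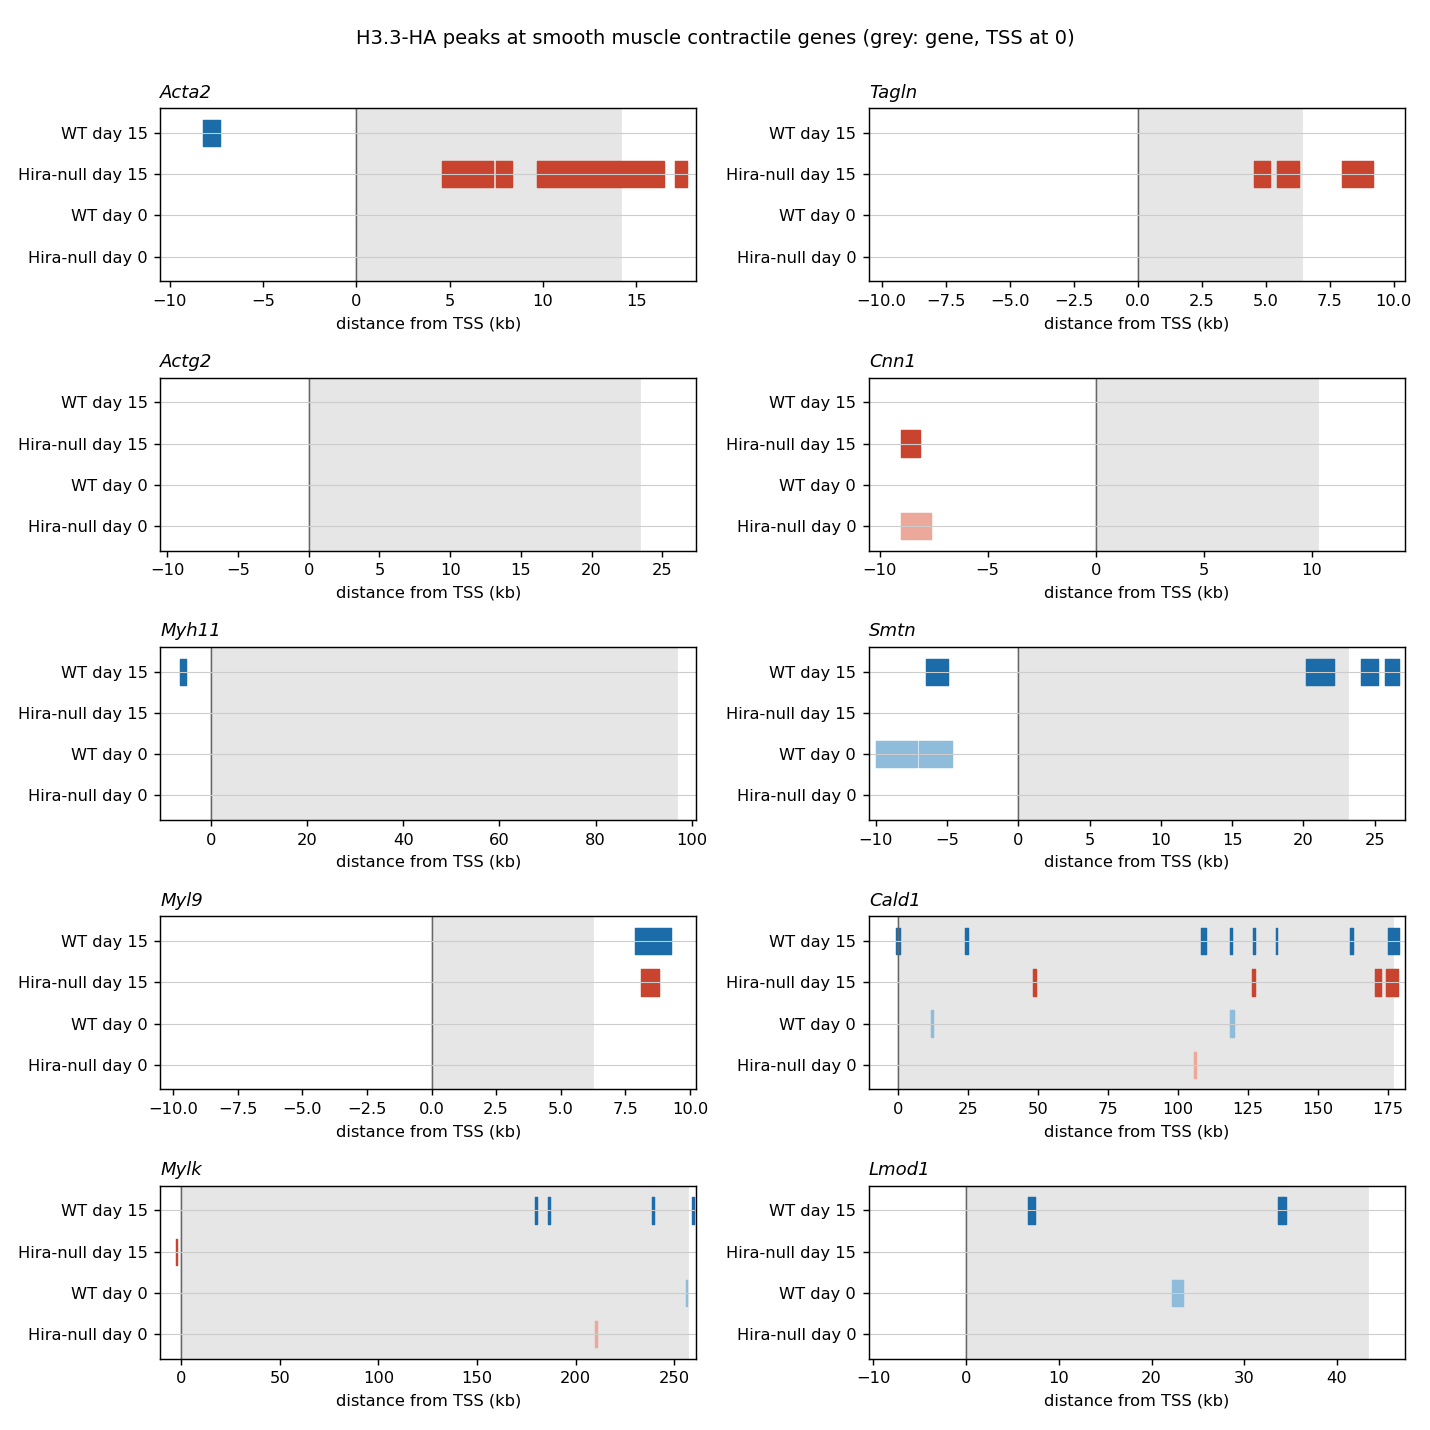
Position of every H3.3-HA peak at the 10 genes, as distance from the TSS in kb along the direction of transcription, with 1 row per list and the gene in grey. Hira-null peaks at day 15 fill the later part of Acta2 and Tagln, while Myh11, Smtn and Lmod1 have WT peaks and none in the Hira-null rows. At day 15, 28.3% of all genes had WT peaks and no Hira-null peak.

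The windows of the 10 genes ran from 19.2 to 270 kb with a median of 36.2 kb, while the median over all genes was 28.4 kb. Per Mb of window, the 10 genes had 27.9 WT peaks at day 15 and all genes had 21.2. The Hira-null list had 20.3 peaks per Mb at the 10 genes and 4.29 over all genes. Leaving out each gene in turn, the Hira-null density went from 15.8 without Acta2 to 29.0 without Mylk, and the WT density from 21.7 without Cald1 to 34.8 without Mylk. The share of sequence under peaks was 3.27% of the 10 windows in WT, with 2.48% over all genes. In Hira-null cells it was 2.93%, with 0.452% over all genes, and without Acta2 it was 1.65%. Of every 1000 peaks in a list, 0.807 of the WT peaks and 2.18 of the Hira-null peaks lay at the 10 genes. When the WT list was held to its 7332 highest-scoring peaks, as many as the Hira-null list has, 8 WT peaks were left at Myl9, Mylk, Smtn and Cald1. These are 4 of the 10 genes, against 18.2% of all genes under the same limit.

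**Figure D2:**
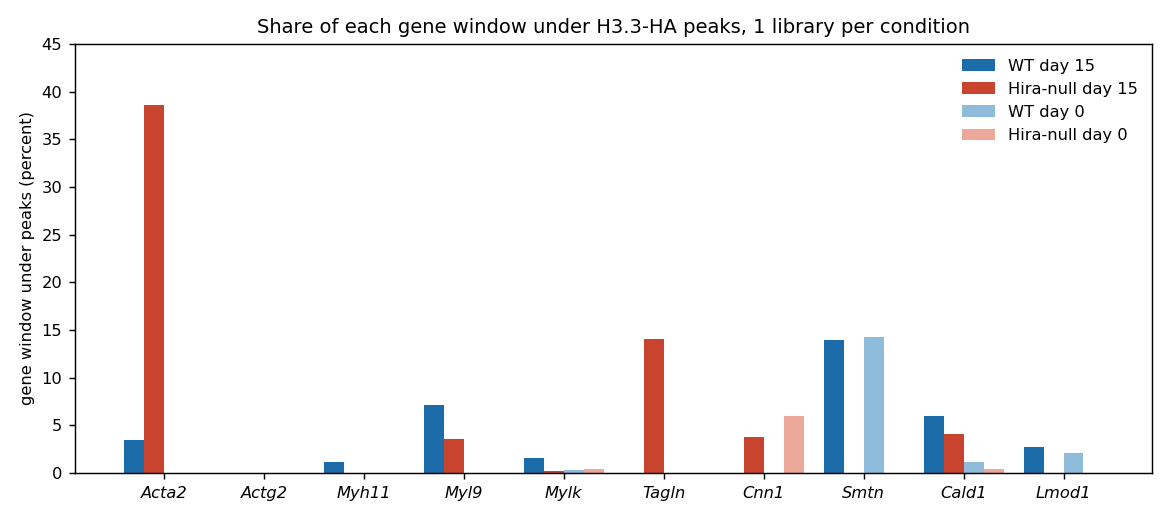
Share of each gene window under H3.3-HA peaks, in percent, for the 4 lists with 1 library each. Acta2 reaches 38.6% in Hira-null cells at day 15 against 3.41% in WT, and Tagln 14.1% against 0, while Smtn has 13.9% in WT and none in Hira-null cells.

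Acta2 encodes the alpha actin of smooth muscle, which is also made in the early heart, and it lies on the minus strand at chr19:34315580-34329826. At day 15 it had 1 peak in WT and 4 in Hira-null cells, with none in either genotype at day 0. The WT peak, at chr19:34337124-34338052, was 929 bp wide with a score of 68.4 and lay 8.23 to 7.30 kb upstream of the TSS. The score is the caller's -10 × log10 of the p-value, starts at 50 in each list and was ranked only within a list. The Hira-null peaks lay in the body of the gene and across its end. The widest, at chr19:34313357-34320141, was 6785 bp, had a score of 1285 and ranked 88 by score and 37 by width among the 7332 Hira-null peaks. It began 9.69 kb after the TSS, covered the last 4.56 kb of Acta2 and ran 2.22 kb past the gene end, where the neighbouring gene Stambpl1 also lies. A peak of 2681 bp at chr19:34322532-34325212 had a score of 342 and ranked 704. Between them lay a peak of 863 bp with a score of 88.1, and a peak of 645 bp with a score of 61.5 lay past the gene end, on Stambpl1. No Hira-null peak overlapped the WT peak, which was 11.9 kb from the nearest of them. The 4 Hira-null peaks together covered 38.6% of the Acta2 window, rank 33 of 22367 genes, while the WT peak covered 3.41%, rank 5445.

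The Acta2 promoter is shown because its CArG sequences are well known and none of the 4 lists had a peak on it. A CArG box is CC and GG around 6 letters that are each A or T. The capitals mark its CArG-like sites, which have at least 5 of those 6 letters and can be read on either strand. The stretch below it holds the full CArG box, in capitals, of the widest Hira-null peak, 13.3 kb after the TSS. The letters of the promoter are from RefSeq and were placed on mm9 by an exact match.
Acta2 promoter, chr19:34329864-34330113, minus strand: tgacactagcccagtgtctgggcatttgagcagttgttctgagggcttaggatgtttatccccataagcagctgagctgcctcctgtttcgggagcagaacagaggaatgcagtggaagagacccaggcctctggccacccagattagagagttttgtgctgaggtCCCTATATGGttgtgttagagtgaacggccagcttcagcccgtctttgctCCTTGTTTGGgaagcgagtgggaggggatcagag
Acta2 box under the Hira-null day 15 peak, chr19:34316437-34316566, minus strand: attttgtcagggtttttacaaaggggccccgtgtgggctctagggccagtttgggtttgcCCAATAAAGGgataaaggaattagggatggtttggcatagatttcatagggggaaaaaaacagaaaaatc

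Actg2 encodes the gamma actin of enteric smooth muscle and lies at chr6:83462899-83486259. Its window of 36.4 kb had 0 peaks in the 4 lists. At day 15 the nearest WT peak was 15.8 kb and the nearest Hira-null peak 92.4 kb outside it. At day 0 the nearest WT peak was 87.3 kb and the nearest Hira-null peak 87.1 kb outside it.

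Myh11 encodes the myosin heavy chain of smooth muscle and lies on the minus strand at chr16:14194620-14291501. It had 1 WT peak at day 15 and none in the other lists. That peak, at chr16:14296683-14297969, was 1287 bp wide with a score of 119, rank 8028 of 27272, and lay 6.47 to 5.18 kb upstream of the TSS. The nearest Hira-null peak of day 15 was 201 kb away. The gene body of 96.9 kb had no peak. The WT peak held a CArG box 5.33 kb upstream of the TSS, shown in capitals with its flanks.
Myh11 box under the WT day 15 peak, chr16:14296770-14296899, minus strand: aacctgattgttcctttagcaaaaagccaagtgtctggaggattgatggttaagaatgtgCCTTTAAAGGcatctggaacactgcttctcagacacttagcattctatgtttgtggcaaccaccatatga

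Myl9 encodes the regulatory light chain of myosin and lies at chr2:156601156-156607394. It had 1 peak in each genotype at day 15, at the same place past the gene end. The WT peak, at chr2:156609027-156610441, was 1415 bp wide with a score of 132. The Hira-null peak, at chr2:156609267-156609955, was 689 bp wide with a score of 99.1. The Hira-null peak lay wholly inside the WT peak and overlapped 48.7% of it. By score the WT peak stood at 24.8% of its list from the top and the Hira-null peak at 45.7%. No day 0 peak lay in the window, although a WT peak lay 1.55 kb and a Hira-null peak 1.20 kb outside it. Of the 8 RefSeq promoters placed for 7 of the genes, that of Myl9 alone held a full CArG box. All RefSeq promoters held one in 1.63% of 32851 cases. The RefSeq promoters used held none under the names Tagln, Myh11 and Actg2, so promoters of these genes were not searched. A Cald1 box at chr6:34548249-34548258 crosses the edge of the first placed Cald1 promoter, which starts at 34548254, and was not counted. The Myl9 promoter is shown up to the first annotated start, with both CArG-like sites in capitals, followed by the middle of the stretch that peaks of both genotypes shared.
Myl9 promoter, chr2:156600950-156601155, plus strand: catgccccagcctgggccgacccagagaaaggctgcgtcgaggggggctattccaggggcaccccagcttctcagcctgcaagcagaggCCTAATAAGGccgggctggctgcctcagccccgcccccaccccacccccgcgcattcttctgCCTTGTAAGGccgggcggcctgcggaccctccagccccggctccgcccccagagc
Myl9 stretch under peaks of both genotypes at day 15, chr2:156609551-156609670, plus strand: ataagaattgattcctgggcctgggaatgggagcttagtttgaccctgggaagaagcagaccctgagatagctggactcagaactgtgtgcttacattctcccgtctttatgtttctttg

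Mylk encodes the kinase that phosphorylates the myosin light chain and lies at chr16:34745296-35002520, with the widest window of the 10 genes. At day 15 it had 4 WT peaks and 1 Hira-null peak, and none of them overlapped. Of the WT peaks, 3 were intronic, at 179, 186 and 239 kb after the TSS, with scores of 145, 96.1 and 69.3. The fourth WT peak, at chr16:35004099-35005452, was 1354 bp wide with a score of 142 and lay 1.58 to 2.93 kb past the gene end. The Hira-null peak, at chr16:34742861-34743417, was 557 bp wide with a score of 56.5 and lay 2.44 to 1.88 kb upstream of the TSS, which belongs to a non-coding transcript of the gene. At day 0, Mylk had 1 WT peak with a score of 55.4 and 1 Hira-null peak with a score of 66.8, at other places. The WT peak with the lowest score of the 4 at day 15 held a CArG box, in capitals.
Mylk box under the WT day 15 peak, chr16:34984468-34984597, plus strand: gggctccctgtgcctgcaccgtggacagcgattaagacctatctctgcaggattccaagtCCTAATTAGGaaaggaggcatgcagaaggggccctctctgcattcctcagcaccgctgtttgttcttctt

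The other 5 genes encode proteins that bind or cap actin. Tagln, which encodes transgelin (SM22 alpha), lies on the minus strand at chr9:45737711-45744141 and had 3 Hira-null peaks at day 15 and none in the other lists. The highest-scoring, at chr9:45734938-45736161, was 1224 bp wide with a score of 197 and lay 1.55 to 2.77 kb past the gene end, on the neighbouring gene Pcsk7. The others, at chr9:45737823-45738699 and chr9:45738955-45739590, had scores of 148 and 59.1 and lay in the last 1.88 kb of Tagln. Together the peaks covered 14.1% of the window, rank 258 of all genes. The nearest WT peak of day 15 was 55.8 kb outside the window.

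Cnn1 encodes calponin, which binds actin and slows the myosin motor, and lies at chr9:21903725-21914074. It had 1 Hira-null peak at day 15, at chr9:21894700-21895581, which was 882 bp wide with a score of 119 and lay 9.03 to 8.14 kb upstream of the TSS. The Hira-null list of day 0 had a peak of 1392 bp with a score of 138 at the same place, and the overlap was 860 bp. No WT peak lay in the window on either day. This was the single place at the 10 genes where Hira-null peaks of both days overlapped, and the middle of the shared stretch is shown.
Cnn1 stretch under Hira-null peaks of both days, chr9:21895092-21895211, plus strand: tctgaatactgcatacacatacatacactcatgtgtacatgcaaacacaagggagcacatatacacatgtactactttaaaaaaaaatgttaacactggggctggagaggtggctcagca

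Smtn encodes smoothelin, a protein of contractile smooth muscle cells, and lies on the minus strand at chr11:3417526-3440615. It had 4 WT peaks at day 15 and none in Hira-null cells on either day. The highest-scoring, at chr11:3445583-3447085, was 1503 bp wide with a score of 217, rank 2470 of 27272, and lay 6.47 to 4.97 kb upstream of the TSS. A peak of 1986 bp at chr11:3418448-3420433 had a score of 194 and lay in the last 2.91 kb of the gene. The other peaks lay past the gene end on the neighbouring gene Selm, with scores of 106 and 68.3. At day 0, the WT list had 2 peaks upstream of Smtn, with scores of 173 and 60.3, and the second contained the whole upstream peak of day 15. The share of the Smtn window under WT peaks was 13.9% at day 15. WT peaks were dense on chromosome 11, with a mean of 46.7 per Mb against 9.17 on the other autosomes at day 15. This was a ratio of 5.09, and the spread of peaks along the chromosome was not examined. The ratio was 2.83 in WT at day 0, 1.18 in Hira-null cells at day 15 and 1.02 at day 0, and the part of this in the Smtn difference was not tested. The middle of the stretch under WT peaks of both days is shown.
Smtn stretch under WT peaks of both days, chr11:3446274-3446393, minus strand: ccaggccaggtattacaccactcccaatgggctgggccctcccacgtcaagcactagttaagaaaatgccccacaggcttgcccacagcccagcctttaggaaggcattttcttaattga

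Cald1 encodes caldesmon, which binds actin and calmodulin and restrains the myosin motor, and lies at chr6:34548500-34725473. It had the most peaks of the 10 genes, with 9 in WT and 6 in Hira-null cells at day 15. Its window was 190 kb, against a median of 36.2 kb for the 10 genes. Day 15 peaks covered 6.01% of the window in WT, rank 3500 of 22367 genes, and 4.06% in Hira-null cells, rank 1070. Both genotypes had their widest Cald1 peak across the gene end. The WT peak there, at chr6:34723517-34725835, was 2319 bp wide with a score of 265, and the Hira-null peak, at chr6:34722721-34725988, was 3268 bp wide with a score of 544, rank 358 of 7332. The Hira-null peak contained the whole WT peak. A further pair past the gene end overlapped by 849 bp, and a pair in an intron, 127 kb after the TSS, overlapped by 734 bp. The highest-scoring WT peak, at chr6:34656705-34658655, was 1951 bp wide with a score of 284, rank 1388 of 27272. It lay 108 to 110 kb after the TSS, with its midpoint 1.76 kb upstream of the start of a shorter coding transcript, and the nearest Hira-null peak was 16.2 kb away. A WT peak with a score of 123, at chr6:34547849-34549043, crossed the TSS itself, the one day 15 peak at the 10 genes to cross a coding transcript start, and the nearest Hira-null peak was 47.8 kb away. The other 4 WT peaks were intronic, with scores of 56.0 to 111, and the lowest of them also lay on the annotated gene Gm14547. The Hira-null peaks without a WT partner were 3 intronic ones with scores of 51.9 to 130.

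When WT was held to its 7332 highest-scoring peaks, the Cald1 difference changed sign, to 3 WT against 6 Hira-null peaks. At day 0, Cald1 had 2 WT peaks, with scores of 193 and 84.6, and 1 Hira-null peak with a score of 83.0. The stronger WT peak of day 0 overlapped an intronic WT peak of day 15 by 992 bp. Of the 9 WT peaks of day 15, 3 held a CArG box, namely the peak across the TSS, the highest-scoring peak and the peak across the gene end. The Hira-null peak across the gene end held the same box. These boxes are shown in capitals, the last with short flanks.
Cald1 box near the TSS, chr6:34548189-34548318, plus strand: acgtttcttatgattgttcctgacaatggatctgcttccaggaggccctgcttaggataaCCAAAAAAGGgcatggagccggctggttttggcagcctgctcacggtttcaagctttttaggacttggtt
Cald1 box under the highest-scoring WT peak, chr6:34656938-34657067, plus strand: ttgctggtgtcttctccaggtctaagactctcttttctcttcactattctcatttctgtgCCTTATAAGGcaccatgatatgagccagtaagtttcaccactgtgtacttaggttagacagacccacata
Cald1 box near the gene end, chr6:34723739-34723768, plus strand: ctgattcataCCTAAATTGGctgattactt

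Lmod1 encodes leiomodin, which starts new actin filaments, and lies at chr1:137221384-137264642. It had 2 intronic WT peaks at day 15 and none in Hira-null cells on either day. The peak at chr1:137228089-137228816 had a score of 57.1 and the peak at chr1:137255019-137255849 a score of 82.0. Neither reached a score of 100, so both were lost when the lists were held to that score. The nearest Hira-null peaks were 37.6 and 64.5 kb away. At day 0, the WT list had 1 intronic peak at another place, with a score of 57.8. The second WT peak of day 15 held a CArG box 34.4 kb after the TSS.
Lmod1 box under the WT day 15 peak, chr1:137255716-137255845, plus strand: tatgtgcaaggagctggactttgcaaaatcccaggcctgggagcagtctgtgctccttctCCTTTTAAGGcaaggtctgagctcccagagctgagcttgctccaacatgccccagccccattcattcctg

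**Figure D3:**
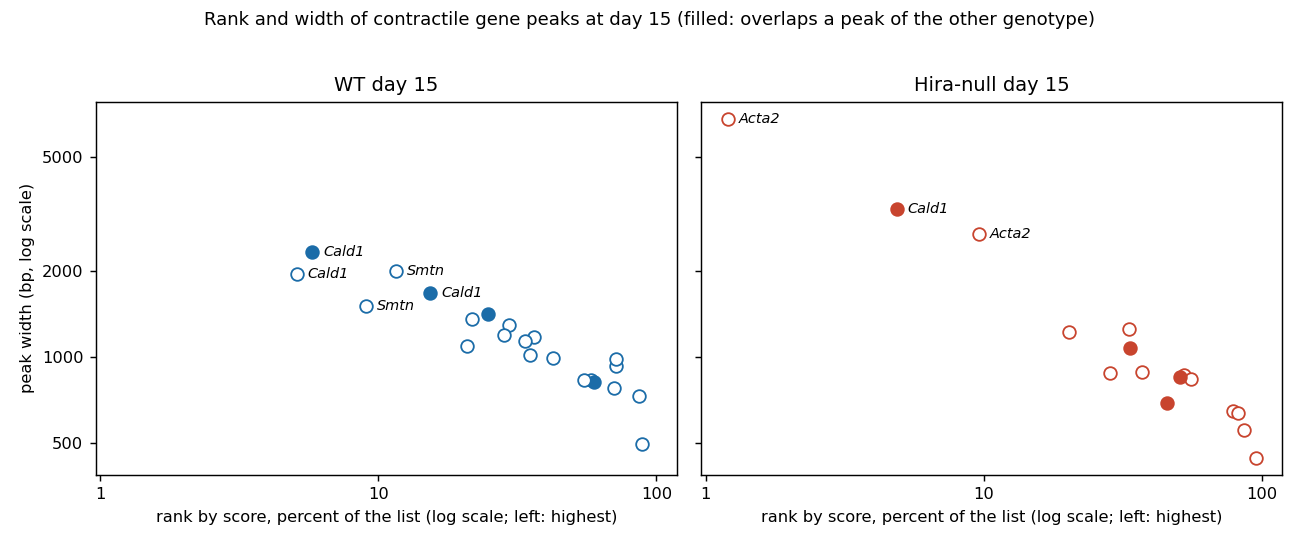
Width in bp against rank by score, in percent of the list, for the 22 WT and 16 Hira-null peaks of day 15, both on log scales with the highest scores at the left. Filled points overlap a peak of the other genotype. The Hira-null Acta2 peak stands apart at 6785 bp and 1.20% of its list, and the highest-ranked WT points are the Cald1 and Smtn peaks.

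Seen over the 10 genes, few of the day 15 peaks were near a TSS. By midpoint, 12 of the 22 WT peaks were intronic, 5 lay past a gene end, 4 lay upstream and 1 lay in a UTR or non-coding exon. The Hira-null peaks divided into 8 intronic, 4 past a gene end, 2 upstream and 2 in a UTR or non-coding exon. A WT peak lay within 3 kb of the TSS at Cald1 alone, 1 of 10 genes, against 19.2% of all genes. A Hira-null peak did so at Mylk alone, against 2.58% of all genes. That Mylk TSS belongs to a non-coding transcript, and the midpoint of the peak was 41.9 kb from the nearest coding transcript start. At the gene end the counts were higher. A WT peak lay within 3 kb of the end of Myl9, Mylk, Smtn and Cald1, and 16.3% of all genes had one there. A Hira-null peak lay within 3 kb of the end of Acta2, Myl9, Tagln and Cald1, and 6.12% of all genes had one there. The median width at the 10 genes was 1113 bp in WT, with 966 bp over all gene windows, and 870 bp in Hira-null cells, with 803 bp over all gene windows. A score of at least 100 was reached by 13 of the 22 WT peaks, against 40.9% of all WT peaks in gene windows, and by 8 of the 16 Hira-null peaks, against 46.4%.

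Full CArG boxes lay in 6 of the 22 WT peaks of day 15, at Myh11, Mylk, Cald1 and Lmod1. This was 27.3% of these peaks, and 6.82% of all WT peaks held a box. Per 100 kb of peak, the WT peaks at the 10 genes held 22.7 boxes and all WT peaks held 6.29. In the Hira-null list of day 15, 2 of the 16 peaks held a box, at Acta2 and Cald1, which was 12.5% against 4.31% of all peaks. Their density was 8.49 per 100 kb, with 4.63 over all peaks. The median GC content was 46.4% in these WT peaks and 42.6% in all WT peaks, and 43.9% and 42.1% in Hira-null cells. At day 0, a box lay in 1 of the 6 WT peaks, against 7.60% of all WT peaks. None of the 3 Hira-null peaks of day 0 held one, against 17.7% of all Hira-null peaks. A match to these letters describes the sequence under a peak and shows no binding of SRF. Among the 8 RefSeq promoters placed on mm9, the 250 bases upstream and 50 bases downstream of a start held a CArG-like site at Acta2 and Myl9, and 9.98% of all RefSeq promoters held one. The first promoter of Cald1 was the only one of the 8 with a peak on it, in WT at day 15.

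At day 0, the 10 genes had 6 WT peaks at Mylk, Smtn, Cald1 and Lmod1, and 35.4% of all genes had a WT peak. The Hira-null list had 3 peaks at Mylk, Cnn1 and Cald1, and 20.3% of all genes had one. No WT and Hira-null peak of day 0 overlapped at these genes. The 6 WT peaks without a Hira-null peak stood against 83.3% of WT peaks in gene windows, and the 3 Hira-null peaks without a WT peak against 64.5%. Per Mb of window the 10 genes had 7.61 WT and 3.81 Hira-null peaks, and all genes had 13.3 and 5.59. Acta2, Myh11, Myl9 and Tagln had no peak at day 0 and 1 or more at day 15 in at least 1 genotype. How many of all genes had this pattern was not counted. At Myl9, the nearest day 0 peaks lay 1.55 kb (WT) and 1.20 kb (Hira-null) outside the window. Few day 15 peaks lay where the same genotype had a peak at day 0. This was so for 2 of the 22 WT peaks, at Smtn and Cald1, against 22.5% of WT peaks in gene windows, and for 1 of the 16 Hira-null peaks, at Cnn1, against 21.3%.

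Other genes of the contraction pathway were counted from 4 lists. Their window lengths were not compared with those of all genes, and a longer window has more room for a peak. Of 18 genes that control contraction, among them those for calmodulin and calcium channels, 14 had a WT peak and 5 a Hira-null peak at day 15, against 39.4% and 15.2% of all genes. In this list, 9 genes had WT peaks alone and 0 had Hira-null peaks alone, the patterns of 28.3% and 4.10% of all genes. Examples are Ppp1r12a and Ppp1cb, which encode subunits of myosin phosphatase, with 18 and 8 WT peaks. Of 18 genes of the cytoskeleton and thin filament, 13 had a WT peak and 12 a Hira-null peak, against 39.4% and 15.2% of all genes. Peaks of both genotypes were at 11 of the 18. Among all genes, 6327 of the 8810 with a WT peak had no Hira-null peak. Synpo2 and Pdlim7, which encode actin-associated proteins, had 3 and 1 WT peaks alone. Flna, which encodes a protein that crosslinks actin, had 2 Hira-null peaks alone. The list held 58 WT and 31 Hira-null peaks, while the control genes held 81 and 9. The windows of all protein-coding genes held 22356 WT and 4336 Hira-null peaks.

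Of 16 genes for SRF, the myocardin family and their regulators, 9 had a WT peak and 1 had a Hira-null peak at day 15, against 39.4% and 15.2% of all genes. The one with both was Myocd, which encodes myocardin, the SRF cofactor of heart and smooth muscle, with 8 WT peaks and 1 Hira-null peak. Myocd lies on chromosome 11, where WT peaks were dense. Mkl1 and Mkl2, the related cofactors, had 14 and 6 WT peaks and no Hira-null peak, and Mef2a and Mef2c had 6 and 2 and no Hira-null peak. Srf had no peak at day 15 in either genotype. Of 17 paralogs of the 10 genes, 11 had a WT peak and 8 a Hira-null peak, against the same shares of all genes. WT peaks alone at 4 and Hira-null peaks alone at 1 of the 17 were near the shares of 28.3% and 4.10% of all genes. Smtnl2, Myl12b and Lmod3 had 2, 4 and 1 WT peaks alone, and Smtnl1 had 1 Hira-null peak alone. Smtnl2 also lies on chromosome 11.

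**Figure D4:**
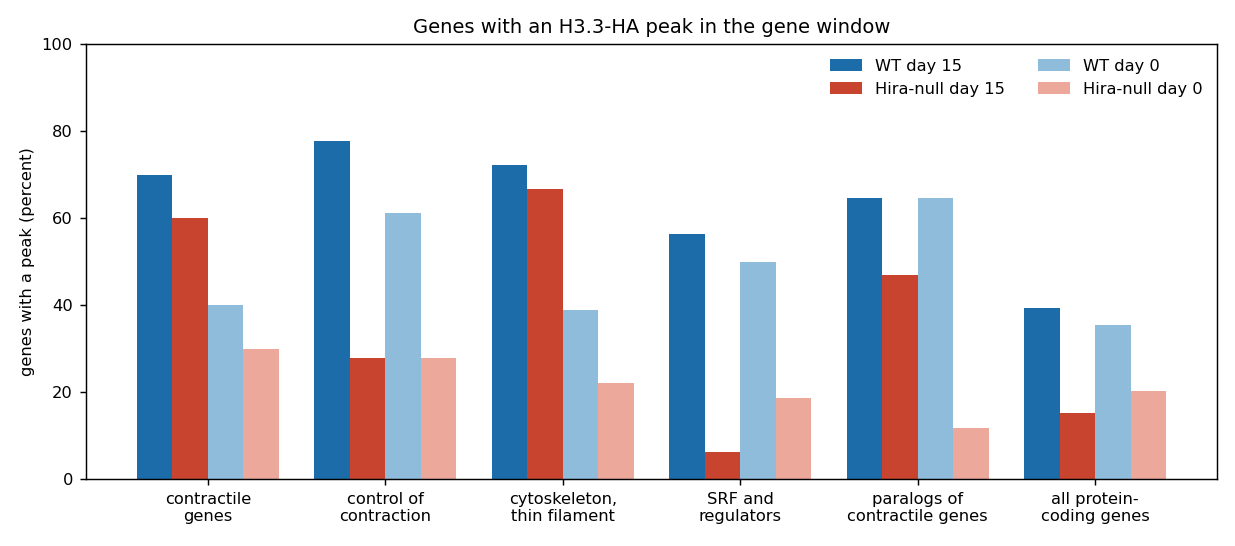
Percent of genes whose window held an H3.3-HA peak, for the 10 contractile genes, the 4 lists of related genes and all protein-coding genes, in the 4 lists of peaks. The Hira-null day 15 bar is 60% for the contractile genes and 15.2% for all genes, and it is lowest for the SRF list, where 1 of 16 genes has a peak.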

How the data were processed

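H3.3-HA ChIP-seq was done on 1 ChIP and 1 input library per condition. Chromatin was digested with micrococcal nuclease without crosslinking and precipitated with an HA antibody. According to the study's methods and the submitters' processing notes, the authors aligned paired-end reads to mm9 with Bowtie, removed duplicates with Samtools and called peaks with MACS 1.4.2 at its default threshold. Each deposited list gives chromosome, start, end and a score, which is the authors' -10 × log10 of the peak p-value and rises with read depth. Depth per library is unknown, the control behind each list is not given in the sources used here, and the input libraries were not analysed here.

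A gene counted when a peak overlapped its window by at least 1 bp, and a peak counted as shared when a peak of the other list overlapped it by at least 1 bp, the rule of bedtools intersect -v in the study. Genes were the 22367 protein-coding genes of GENCODE M1, and sequences were read from mm9 (NCBIM37). The RefSeq promoters used (GRCm38.p6) covered 7 of the 10 genes and held none under the names Tagln, Myh11 and Actg2. Each was placed on mm9 by an exact single match. Python 3.11.15 and matplotlib 3.10.9 were used. Window counts were checked against bedtools 2.31.1, with 0 of 22367 genes counted differently in each list, and the overlap code was tested on simulated data.

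All 10 genes were named. For day 15 every peak was given or counted, and for day 0 the counts were given with the highest score of each gene and list. From each related list the first 4 genes, at most, whose day 15 peaks differed in presence between genotypes were named, apart from genes not reported here and besides genes the text singles out after their values were seen (Myocd and Srf). The members, windows and lists were chosen with earlier results of these data known. Alternatives were a score of at least 100, lists of equal length, 3 narrower windows, peak midpoints, merged peaks, and stricter or wider overlap. Myl12a was not found in the annotation under that name, and values of some single genes of the related lists are not reported here.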

Additional observations from a re-analysis of the deposited data

How the results depend on the processing

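With 1 library per condition and unknown depth, a missing peak cannot be told from a peak below the threshold. No paired analysis was possible because each condition had 1 ChIP library and no test was made. With a score of at least 100, contractile genes with a peak at day 0 numbered 2 in WT and 1 in Hira-null cells. Of the day 15 peaks, 11 in WT and 7 in Hira-null cells had no partner under that score limit. With lists of equal length, genes with a peak numbered 4 in WT at day 15, 2 in WT and 0 in Hira-null cells undifferentiated, and 5 WT peaks of day 15 had no partner. Within gene bodies, 4 genes had a WT and 3 a Hira-null peak at day 15. Within promoters (3 kb upstream to 1 kb downstream of the TSS), 1 gene had a WT and 1 a Hira-null peak at day 15, and 0 had either at day 0, while 1 WT and 1 Hira-null peak of day 15 had no partner. The other 30 of 46 such values stayed within 1.5 times. The WT minus Hira-null difference at day 15 turned from 3 to -3 peaks at Cald1 with lists of equal length, which leave fewer WT peaks, and from 3 to -1 at Mylk within promoters. The Mylk TSS used there belongs to a non-coding transcript. Of 140 values for single genes, 108 stayed within 1.5 times, 30 moved further and 2 changed sign.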
